A study of Mus musculus with 15 samples.

Results

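Altogether 10 genes of visceral smooth muscle, the involuntary muscle of the gut wall, were followed through the development of the mouse stomach: Acta2, Actg2, Myh11, Tagln, Cnn1, Des, Myocd, Smtn, Lmod1 and Mylk. They are taken by gene name, a rule that itself uses no measured value. The names were chosen with earlier results of these data known. All 10 genes were found among the 44788 gene symbols of the tables, each with 1 entry. RNA was sequenced from whole stomachs of C57BL/6 mice at 15 ages, with 1 library per age, and levels are given in FPKM, fragment counts scaled for transcript length and for the size of the library. The labels name no treatment, and age is the only difference between libraries that they give.

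For tests the ages were put into 4 groups by label alone: early fetal (E12.5, E13.5 and E14.5, n = 3), late fetal (E15.5, E16.5, E17.5 and E18.5, n = 4), suckling (D1, D3, D5, W1 and W2 after birth, n = 5) and weaned (W3, W6 and W8, n = 3). E, D and W stand for embryonic day, day after birth and week after birth. The names suckling and weaned stand for the usual feeding of mice of these ages, which the labels do not record. No age was replicated in these tables, so the ages of a group stand as its replicates and the spread within a group includes change with age. The study's methods describe mice from W3 onwards as male and younger mice as of either sex, so the weaned ages and a change in sex makeup cannot be told apart. They also describe several embryo stomachs combined per replicate up to E17.5, with more of them up to E14.5, and single stomachs later. Whether this holds for the RNA libraries is not stated. If it does, such pooling and the early fetal group cannot be told apart.

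Smooth muscle contracts when calcium, through calmodulin, turns on myosin light chain kinase, which phosphorylates the myosin that pulls on actin filaments. Its cells carry their own forms of actin, myosin and actin-binding proteins, whereas most other cells of the stomach use the non-muscle forms of the same families. Many of these genes are switched on by serum response factor (Srf), which binds a DNA element called the CArG box, together with the co-activator myocardin (Myocd). In the stomach this muscle forms the outer layers of the wall, which mix and propel food.

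The share of all FPKM that fell to the 10 genes rose from 0.182% at E12.5 to 1.31% at D5, dropped to 0.472% at W2, stood at 0.773% at W3 and ended at 0.197% at W8. In 8 of the 10 genes the highest value was that at D5, while Des peaked at W3 and Myocd at E12.5. Some features of the libraries bear on this course. The 10 most abundant symbols took between 11.2% and 53.2% of all FPKM, most at W6 and W8, when genes of the gastric glands are abundant. A factor that centres each library on the median ratio of its symbols to their means over all libraries fell from 1.27 at E12.5 to 0.570 at W6, and values divided by it are called rescaled values below. On the rescaled values Acta2, Myh11, Smtn, Lmod1 and Mylk still peaked at D5 and Myocd at E12.5, and Actg2, Tagln, Cnn1 and Des peaked at W3.

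Beside the stomach label, 7 genes of the gastric glands all reached 1 FPKM in every library, with a sum that rose from 338 FPKM (E12.5) to 273102 FPKM (W6). Their fetal levels were a small part of the later ones, as for Pgc (137 FPKM at E12.5, 151321 FPKM at W8) and Muc5ac (1.42 and 671 FPKM). Passing 1 FPKM therefore says little about the label of the fetal libraries. The liver gene Alb was at 461 FPKM at D1 and 65.4 FPKM at W3 and lay between 0.672 and 25.8 FPKM elsewhere. The summed level of 16 striated muscle genes was highest at W2, at 197 FPKM with 12 of the 16 at 1 FPKM or more, against 13.99 to 151 FPKM in the other libraries, and the skeletal actin Acta1 stood at 34.9 FPKM there. Of the skeletal myosins in that list, Myh2 and Myh4 were under 0.4 FPKM in every library, as was the filament protein nebulin (Neb), while Myh1 reached 1.25 and Myh8 3.84 FPKM at W2. Of 6 heart muscle genes, Myh6 was under 0.4 FPKM in every library and Myh7 reached 3.16 FPKM at E16.5. The others reached 42.4 FPKM for Tnnt2 at D1, 92.5 FPKM for Myl7 at W1, 258 FPKM for Tnni3 at W8 and 0.547 FPKM for Nppa at D5. In whole tissue, fewer muscle cells and less of a transcript per muscle cell cannot be told apart.

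**Figure D1:**
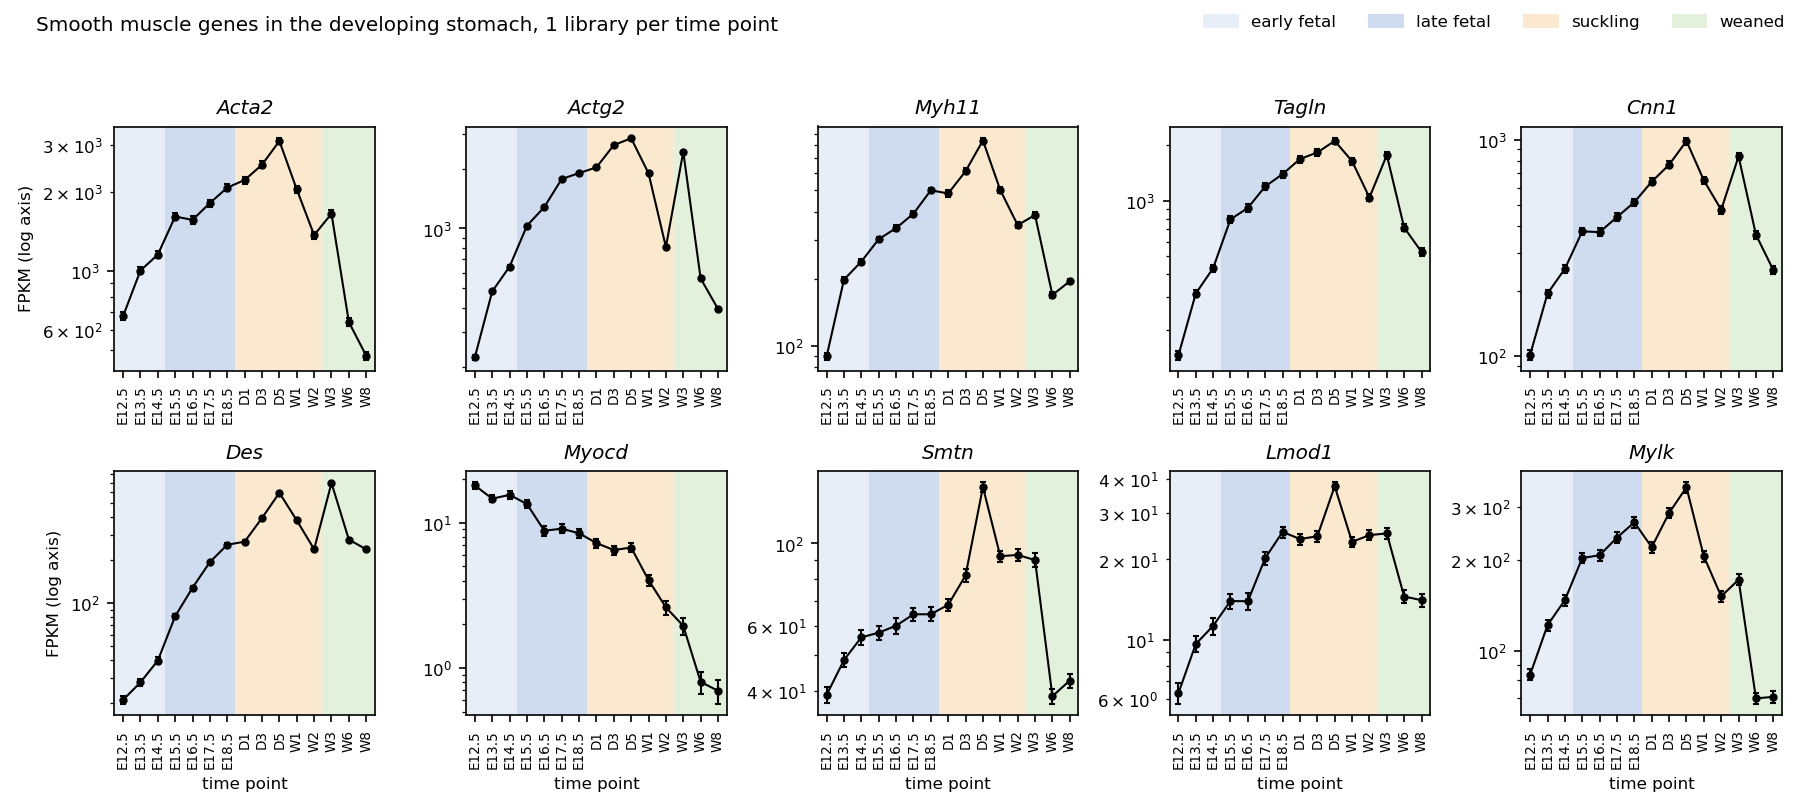
FPKM of the 10 genes (log axis, a separate range for each gene) at the 15 ages, 1 library per age, with vertical bars for the deposited confidence bounds and background colours for the 4 age groups. From E12.5 to D5 the level rose 28.4-fold for Des and 3.63-fold for Smtn, and Myocd fell from 18.1 FPKM (E12.5) to 0.695 FPKM (W8).

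The actins are described first. Acta2 encodes smooth muscle alpha-actin, which also marks muscle of vessels and activated fibroblasts, and Actg2 encodes the gamma-actin of gut and other visceral muscle. The coding sequences of the pair were 84.2% identical (GENCODE M21, GRCm38). The whole Acta2 transcript shared no stretch of 50 bases with Actg2, and 0.352% of its 50-base stretches occurred in any other actin. The last 60 coding bases of each are shown as an example, since the pair are the same only in shorter stretches. Capitals mark the 11 bases at which the pair differ:
Acta2: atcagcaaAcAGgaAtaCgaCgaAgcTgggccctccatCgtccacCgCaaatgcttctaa
Actg2: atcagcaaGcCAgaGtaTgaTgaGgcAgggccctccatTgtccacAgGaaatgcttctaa

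Acta2 lies on the minus strand at chr19:34240336-34255585 (GRCm38). Its level was 674, 1004, 1154, 1608, 1562, 1809.7 and 2070.2 FPKM from E12.5 to E18.5. It was 2212, 2528, 3109.8, 2039 and 1368 FPKM from D1 to W2, and 1649, 640.2 and 477 FPKM at W3, W6 and W8. Acta2 thus climbed 4.61-fold from E12.5 to D5 and dropped below its E12.5 level at W6 and W8. After rescaling W8 remained above E12.5, at 704 against 532 FPKM.

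Actg2 (chr6:83512909-83536251, minus strand) started lower, with 225, 482, 643, 1033, 1282, 1774 and 1902 FPKM before birth. The suckling ages gave 2031, 2630.3, 2847, 1896 and 807 FPKM and the weaned ages 2433, 560.3 and 393 FPKM. This gene rose more steeply than Acta2, 12.7-fold from E12.5 to D5, and swung more widely around weaning, with a drop from W1 to W2, a 3.02-fold rise from W2 to W3 and a return to 560.3 FPKM at W6. The ratio of Actg2 to Acta2 within a library, which no scaling of the library can alter, was 0.333 at E12.5 and 0.980 at E17.5, stood at 0.590 at W2 and peaked at 1.48 at W3. After birth the ratio was 1.44-fold that before birth, a difference that did not pass (exact two-sided permutation test of 8 against 7 ages, p = 0.0426, adjusted p = 0.0852 over the 20 ratio tests). Without E17.5 its log2 difference was 0.63 and passed.

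In total 10 ratios of this kind were each tested for birth (8 ages after against 7 before) and for weaning (3 weaned against 5 suckling ages), and 8 of the 20 tests passed at an adjusted p under 0.05. The tests compare mean log2 ratios, and folds are given from them. They treat the ages as interchangeable, so a change at birth or weaning cannot be told apart from a steady change with age. The smallest p that these designs allow is 0.000155 for birth and 0.0179 for weaning. Against the sum of the non-muscle actins Actb and Actg1, the sum of Acta2 and Actg2 grew from 0.301 at E12.5 to 2.27 at D5 and was 0.456 at W8. Neither its difference at birth (1.59-fold, p = 0.158) nor that at weaning (0.406-fold, p = 0.0357, adjusted p = 0.0794) passed in the exact permutation test.

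Myh11, the heavy chain of smooth muscle myosin and a defining marker of this cell type, lies at chr16:14194527-14291408 on the minus strand. It was measured at 89.5, 198, 239, 302, 338, 393 and 500.2 FPKM from E12.5 to E18.5. After birth its level was 484, 609, 838, 501 and 349 FPKM from D1 to W2 and 387, 169 and 195 FPKM from W3 to W8. Its highest ages were D3 and D5, and the value at W8 was still 2.18-fold that at E12.5. Relative to the non-muscle heavy chains Myh9 and Myh10 together, Myh11 stood at 0.460 at E12.5 and 7.20 at D5.

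After birth that ratio was 2.86-fold higher than before (log2 difference 1.51, exact two-sided permutation test, p = 0.00109, adjusted p = 0.00363), and at weaning it was 0.704-fold, which did not pass (p = 0.143). Of the pair of partners, Myh10 fell from 116 FPKM (E12.5) to 19.9 FPKM (D1), while Myh9 lay between 49.1 and 94.0 FPKM in all libraries.

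Mylk, the myosin light chain kinase that starts contraction (chr16:34745199-35002436, plus strand), was at 83.6, 122, 148, 203, 208, 238 and 267 FPKM before birth. It was at 221, 287, 349, 206 and 152 FPKM from D1 to W2 and at 172, 69.7 and 70.5 FPKM from W3 to W8. It rose 4.17-fold from E12.5 to D5, less than its substrate's heavy chain did. The ratio of Mylk to Myh11 was 0.934 at E12.5, between 0.534 and 0.674 from E13.5 to E18.5 and between 0.362 and 0.471 after birth, so that no age after birth overlapped any before. That difference passed (log2 difference -0.61, exact permutation test, p = 0.000155, the smallest possible, adjusted p = 0.00104). At weaning the ratio was 0.926-fold, which did not pass (exact permutation test, p = 0.214).

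The thin filament proteins transgelin (Tagln), calponin 1 (Cnn1) and leiomodin 1 (Lmod1) bind actin, and leiomodin starts new filaments. Tagln (chr9:45929628-45936058, minus strand) had 145, 315, 432, 794, 915, 1197 and 1395 FPKM from E12.5 to E18.5. Its values after birth were 1683, 1827, 2110.1, 1639 and 1041 FPKM in the suckling and 1769, 716 and 529 FPKM in the weaned ages. Tagln rose 14.51-fold from E12.5 to D5, and at W8 it was the most abundant of the 10 genes, at 529 FPKM with bounds of 506 and 552, above Acta2 with bounds of 461 and 494. Its gene overlaps Pcsk7, which reached 22.9 FPKM at most.

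The ratio of Tagln to its widely expressed relative Tagln2 was 1.49 at E12.5, 5.89 at D5 and 0.819 at W8. Its differences at birth (0.821-fold, p = 0.548) and at weaning (0.300-fold, p = 0.0536, adjusted p = 0.0974) did not pass in the exact permutation test. Tagln2 itself went from 97.4 FPKM (E12.5) to 836 FPKM (W3).

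Cnn1 (chr9:22099253-22109221, plus strand) read 101, 195, 253, 377, 374, 438 and 514 FPKM at the fetal ages. The suckling ages read 639, 765, 985, 648 and 474 FPKM, and the weaned ages 836, 363 and 249.7 FPKM. Cnn1 rose at nearly every step to D5 and had a later maximum at W3. Against its relatives Cnn2 and Cnn3 together, which occur in many cell types, Cnn1 moved from 0.166 at E12.5 to 2.20 at D5 and 3.69 at W3. All ages after birth lay above all before (3.77-fold, exact permutation test, p = 0.000155, adjusted p = 0.00104). At weaning the ratio differed by 1.22-fold, with no call (exact permutation test, p = 0.357).

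Lmod1 (chr1:135324813-135368065, plus strand) was far less abundant, at 6.30, 9.64, 11.3, 14.0, 13.9, 20.2 and 25.4 FPKM before birth. It was at 23.9, 24.4, 37.6, 23.3 and 24.7 FPKM from D1 to W2 and 25.0, 14.52 and 14.1 FPKM from W3 to W8. Apart from D5 the suckling ages were all close together, and W3 resembled them. Its ratio to tropomodulin 3 (Tmod3), a non-muscle relative, was 0.270 to 0.535 before birth and 0.680 to 1.46 after, without overlap (2.36-fold, exact permutation test, p = 0.000155, adjusted p = 0.00104). The difference at weaning, 0.839-fold, did not pass (exact permutation test, p = 0.375).

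Des and Smtn belong to the cytoskeleton. Desmin (Des, chr1:75360344-75367716, plus strand) forms the intermediate filaments of muscle cells, also in striated muscle, and stood at 20.9, 27.8, 39.5, 80.8, 128, 194 and 257 FPKM before birth. Thereafter it was at 269.7, 396, 594, 381 and 239 FPKM from D1 to W2 and 697, 279 and 238 FPKM from W3 to W8. Des had the steepest rise of the 10 genes, 28.4-fold to D5, and was the only one with its deposited maximum at W3. At W8 it remained 11.4-fold above E12.5, whereas Acta2 and Mylk were at 0.708-fold and 0.844-fold. After rescaling these folds were 21.3 for Des, 1.32 for Acta2 and 1.58 for Mylk.

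Vimentin (Vim), the intermediate filament protein of fibroblasts and other mesenchymal cells, went the other way, from 440.3 FPKM (E12.5) to 54.7 FPKM (W8). The Des to Vim ratio therefore spanned the widest range of the 10 ratios, from 0.0475 at E12.5 to 4.36 at W8. Between E18.5 and D1 the ratio went from 0.702 to 0.624. It was 10.2-fold higher after birth than before (exact permutation test, p = 0.000311, adjusted p = 0.00155), and 3.50-fold higher in weaned than in suckling ages without overlap (exact permutation test, p = 0.0179, the smallest possible, adjusted p = 0.0446). Between W2 and W3 Des went from 239 to 697 FPKM, and the sum of the 16 striated muscle genes from 197 to 149 FPKM. Of the 16, Tnnt3, Tnni2 and Ckm went from 18.8, 36.3 and 33.4 FPKM to 46.5, 37.4 and 36.3 FPKM. Most of the others fell, with Acta1, Tnnc2 and Mylpf going from 34.9, 24.9 and 24.3 FPKM to 13.6, 2.07 and 6.55 FPKM. The part of striated muscle genes in the level of Des was not tested.

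Smoothelin (Smtn, chr11:3517522-3539654, minus strand), a protein of contractile smooth muscle, read 39.1, 48.5, 55.9, 57.5, 60.04, 64.4 and 64.5 FPKM in the fetal ages. It read 68.3, 82.0, 142, 92.4 and 93.1 FPKM from D1 to W2 and 90.2, 38.8 and 42.7 FPKM from W3 to W8. Smtn changed least before birth, stood out at D5 and did not dip at W2. Its gene overlaps a predicted gene that reached 24.7 FPKM at most. The ratio of Smtn to Myh11 was highest at E12.5 (0.437), lowest at E18.5 (0.129) and 0.219 at W8, and neither birth (0.916-fold, p = 0.621) nor weaning (1.31-fold, p = 0.143) passed in the exact permutation test.

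Myocd, the co-activator of Srf, was the exception in direction. The gene (chr11:65173608-65269989, minus strand) read 18.1, 14.7, 15.6, 13.48, 8.82, 9.11 and 8.47 FPKM from E12.5 to E18.5, 7.26, 6.49, 6.75, 4.03 and 2.61 FPKM from D1 to W2 and 1.95, 0.801 and 0.695 FPKM from W3 to W8. The highest was 26.0-fold the lowest, from E12.5 to W8, and Myocd declined while the other 9 genes rose to D5. Its level was low, so its bounds reached 19.4% of the value, against at most 9.08% in the other 9 genes.

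Srf fell much less, from 36.8 FPKM (E12.5) to 14.8 FPKM (W8), so the ratio of Myocd to Srf went from 0.492 to 0.0470. After birth it was 0.367-fold that before (log2 difference -1.45, exact permutation test, p = 0.00109, adjusted p = 0.00363). In weaned ages it was 0.348-fold that in suckling ages, without overlap (exact permutation test, p = 0.0179, adjusted p = 0.0446). The weaning calls of Des to Vim and of Myocd to Srf did not pass when any suckling or weaned age was left out, since the smallest possible p is then higher.

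**Figure D2:**
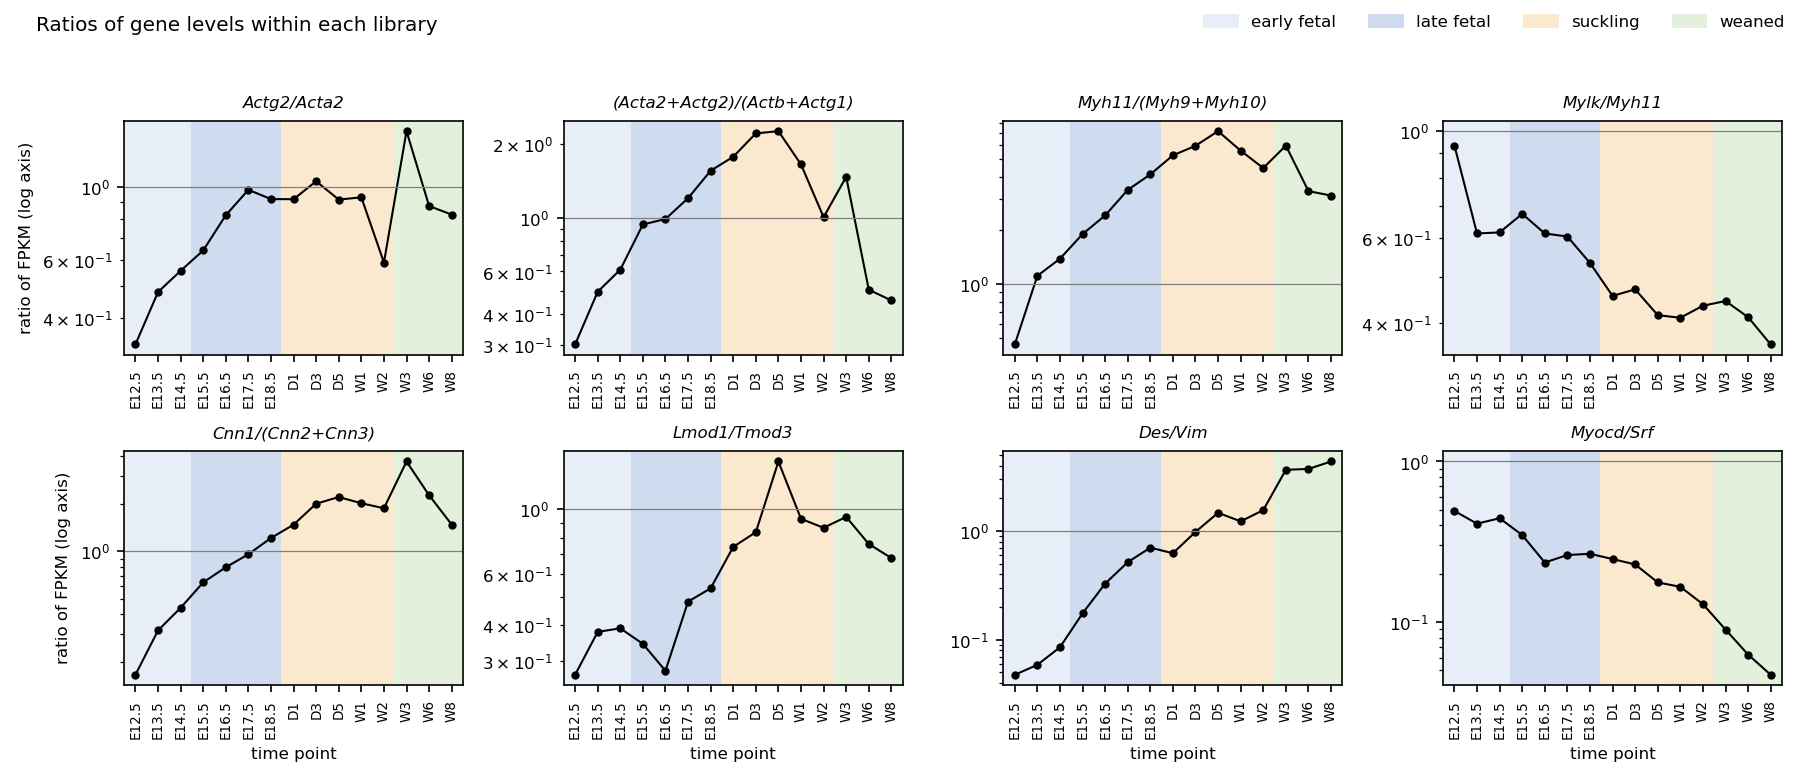
Ratios of FPKM within each library (log axis) at the 15 ages, with a grey line at equal levels and background colours for the age groups. Cnn1, Lmod1 and Des had higher mean ratios to their non-muscle relatives after birth than before, the ratio of Myocd to Srf went from 0.492 at E12.5 to 0.0470 at W8, and Actg2 exceeded Acta2 most at W3, at 1.48.

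RefSeq promoters (GRCm38.p6, 250 bases before the start) were found for 6 of the 10 genes: Acta2, Cnn1, Des, Lmod1, Mylk and Smtn. The windows of Mylk (chr16:34784700-34784949) and Smtn (chr11:3539293-3539542) lie inside the gene positions given above. That of Acta2 lies partly inside, so not all 6 promoters precede the outermost start of the gene. They were searched for the CArG box, the binding element of Srf, written CCNNNNNNGG with the middle bases A or T, which reads the same way on both strands. With all 6 middle bases A or T, none of the 6 promoters held it, and 1.47% of all 32851 promoters did. With at least 5 of the 6 middle bases A or T, a form chosen because boxes of Acta2 are known to deviate, only Acta2 held it, against 8.59% of all promoters. The choice of this form fixed the outcome for Acta2 in advance, so the shares over all promoters are background and do not test it. The promoter of Acta2 (chr19:34255374-34255623, minus strand) held a pair of these matches, beginning 84 and 34 bases before the RefSeq start used here, and 0.670% of all promoters held 2 or more. On the minus strand the gene position given above begins further upstream, at 34255585, so both matches lie inside it. Only the bases around each match are shown, with the match in capitals, because Acta2 is the only member with such a match:
Acta2, chr19:34255438-34255467: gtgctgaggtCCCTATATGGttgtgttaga
Acta2, chr19:34255388-34255417: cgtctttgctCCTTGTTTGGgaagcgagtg
A match is a run of letters, not a measured binding site, and its absence from this window says nothing about Srf at the other genes.

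Differences between successive age groups were tested with limma on log2(FPKM + 1) over the 16902 symbols that reached 1 FPKM in some library, with Benjamini-Hochberg adjustment and an adjusted p under 0.01. In the F test over the 4 groups 9 of the 10 genes passed, against 75.5% of all symbols tested, which is itself a large share. Smtn did not pass (adjusted p = 0.0113, limma). On the rescaled values all 10 passed, against 66.1% of all symbols.

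**Figure D3:**
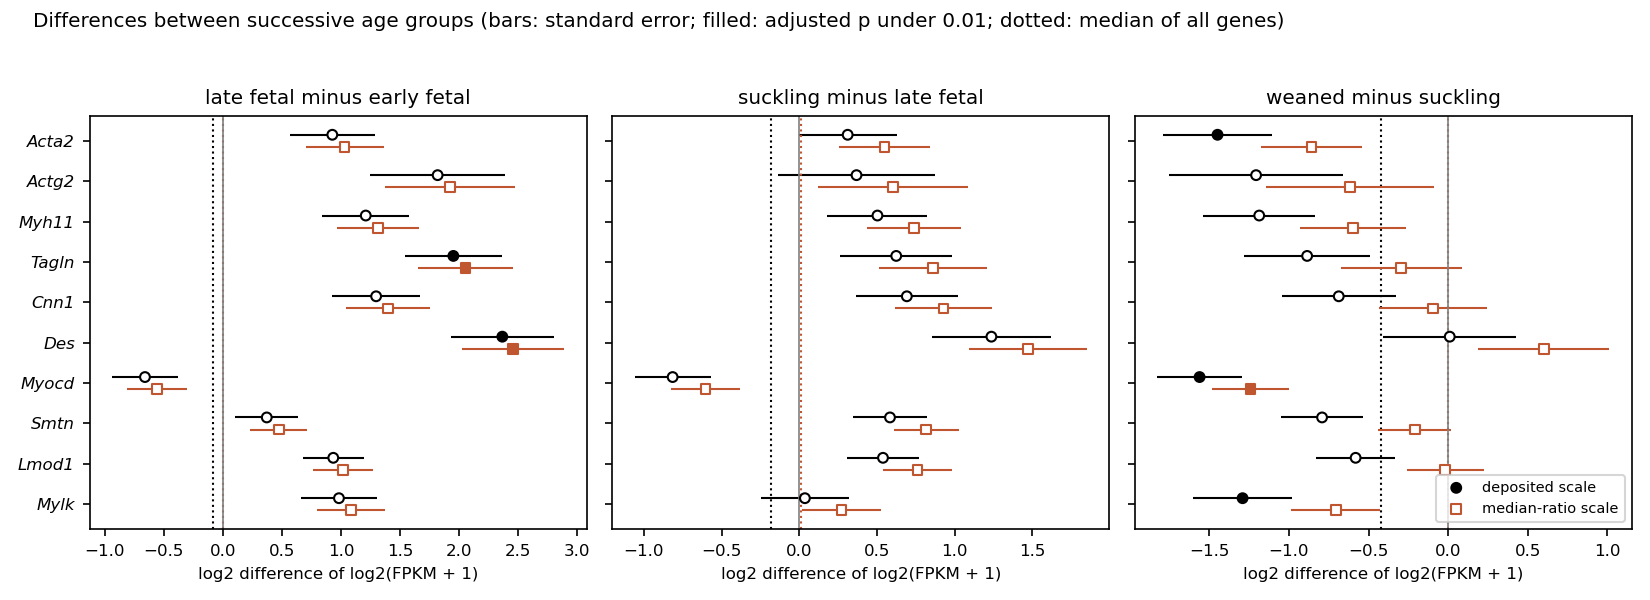
Differences between successive age groups on the log2(FPKM + 1) scale for the 10 genes, with bars for the standard error, as deposited (black circles) and after median-ratio scaling (brown squares), filled where the adjusted p was under 0.01, and dotted lines at the median of all symbols. In the late against early fetal panel all genes but Myocd lie to the right of 0, and in the weaned against suckling panel the deposited values lie to the left of the rescaled ones.

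Between early and late fetal ages every gene but Myocd was higher at each late age than at any early age, which 18.7% of all symbols were, and Myocd was lower at each late age, as 27.8% of all symbols were. The adjusted test called 2 genes higher, Tagln and Des, and none (0) lower, against 5.38% of all symbols called higher and 3.92% lower. Tagln rose from 297 ± 144 (SD, n = 3) to 1075 ± 272 FPKM (SD, n = 4), a log2 difference of 1.95 ± 0.41 (SE, adjusted p = 0.00594, limma). Des rose from 29.4 ± 9.38 to 165 ± 76.8 FPKM (SD), a log2 difference of 2.37 ± 0.44 (SE, adjusted p = 0.00345, limma).

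The median log2 difference of the 10 genes was 1.10, beside -0.09 for all symbols. After rescaling the medians were 1.20 and 0.00 and Tagln and Des were the 2 genes called, against 5.59% of symbols higher and 3.81% lower, and the same 9 genes were higher and Myocd lower without overlap, as 22.7% and 23.5% of symbols were. The other differences ranged from -0.66 in Myocd to 1.82 in Actg2, and 9 of the 10 genes had an unadjusted p under 0.05. These calls rested on few ages: without E12.5, E13.5, E17.5 or E18.5 no gene was called (0), where 0.071%, 0.071%, 0.84% and 1.4% of all symbols were called higher, and without E16.5 there was 1 call, where 1.85% of all symbols were called higher.

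From late fetal to suckling ages 0 genes were called by limma, against 5.49% of symbols higher and 17.2% lower, with 4 of the 10 at an unadjusted p under 0.05. With rescaling the count was also 0, against 8.34% of symbols higher and 7.01% lower, with 7 at an unadjusted p under 0.05. Des had the largest difference, 1.24 ± 0.38 (SE, adjusted p = 0.0199, limma), and was called without E18.5, as the 1 call then made, where 6.76% of all symbols were called higher. Myocd differed by -0.82 ± 0.24 (SE, adjusted p = 0.0168, limma), with all suckling ages below all late fetal ages. Smtn was the other gene without overlap, higher in all suckling ages (log2 difference 0.58 ± 0.24, SE, adjusted p = 0.0595, limma), where 7.28% of all symbols were higher and 22.9% lower without overlap. After rescaling Cnn1, Des, Smtn and Lmod1 were higher without overlap (13.4% of symbols) and Myocd was lower (2092 of 16790 symbols). The median of the 10 genes was 0.52, beside -0.18 for all symbols, and on the rescaled values 0.75 beside 0.01.

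From suckling to weaned ages 3 genes were called lower, Acta2, Mylk and Myocd, and none (0) higher, against 39.2% of all symbols called lower and 3.6% higher, so the share of members called was no higher than that of all symbols. Only Myocd had weaned values without overlap, all lower, as 46.5% of symbols had (4.9% were higher). Acta2 fell from 2251 ± 640.5 (SD, n = 5) to 922 ± 635 FPKM (SD, n = 3), a log2 difference of -1.45 ± 0.34 (SE, adjusted p = 0.00288, limma). Mylk had a log2 difference of -1.29 ± 0.31 (SE, adjusted p = 0.00314, limma), and Myocd one of -1.56 ± 0.27 (SE, adjusted p = 0.000424, limma). After rescaling Myocd alone was called, with a log2 difference of -1.24 (adjusted p = 0.00136, limma), where 11.9% of all symbols were called lower and 17.4% higher. Without overlap Myocd was again lower (17.0% of symbols, and 22.5% higher). Acta2 and Mylk then had differences of -0.86 and -0.71 that did not pass.

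The median log2 difference of the 10 genes was -1.04 beside -0.42 for all symbols, and on the rescaled values -0.45 beside 0.00. Des differed by 0.01 ± 0.42 (SE, adjusted p = 0.989, limma), and by 0.60 ± 0.41 on the rescaled values, while Cnn1 and Lmod1 stood at -0.10 and -0.02 on the latter. W3 was above W6 and W8 in all 10 genes. Without W3, 8 genes were called lower, where 40.3% of all symbols were, the further ones being Actg2, Myh11, Tagln, Cnn1 and Smtn. Without W6 or W8 Myocd was the 1 call left, where 19.6% and 31.1% of all symbols were called lower. Without D1 and W2, the libraries with most liver and striated muscle transcripts among the suckling ages, 4 genes were called lower, Myh11 being the further one, where 33.4% of all symbols were.

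Between neighbouring ages, as judged by the deposited confidence bounds, which cover counting error only, all 10 genes stepped down from D5 to W1 (28.9% of all symbols did) and again from W3 to W6 (45.7% of all symbols). The median log2 step from W3 to W6 was -1.25, beside -0.26 over all symbols. From W1 to W2 bounds were lower without overlap in 8 genes (12.9% of all symbols), with Actg2 the furthest at -1.23, and from W2 to W3 they were higher in 7 (8.82% of all symbols), with Actg2 at 1.59. At W2 the fibroblast collagen Col1a1 was also low, 409 FPKM against 1021 FPKM at W1, as was Vim, 154 against 311 FPKM, and the summed level of 7 fibroblast genes was 1462 against 2541 FPKM. Of those 7, Postn and Pdgfra rose from W1 to W2, from 121 to 160 FPKM and from 11.5 to 14.0 FPKM, and the others fell. At W3 Col1a1 was at 421 FPKM, Vim at 191 FPKM and the 7-gene sum at 1236 FPKM, and after rescaling that sum was 1515 at W2 and 1625 at W3. Their part in the dip at W2 was not tested.

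**Figure D4:**
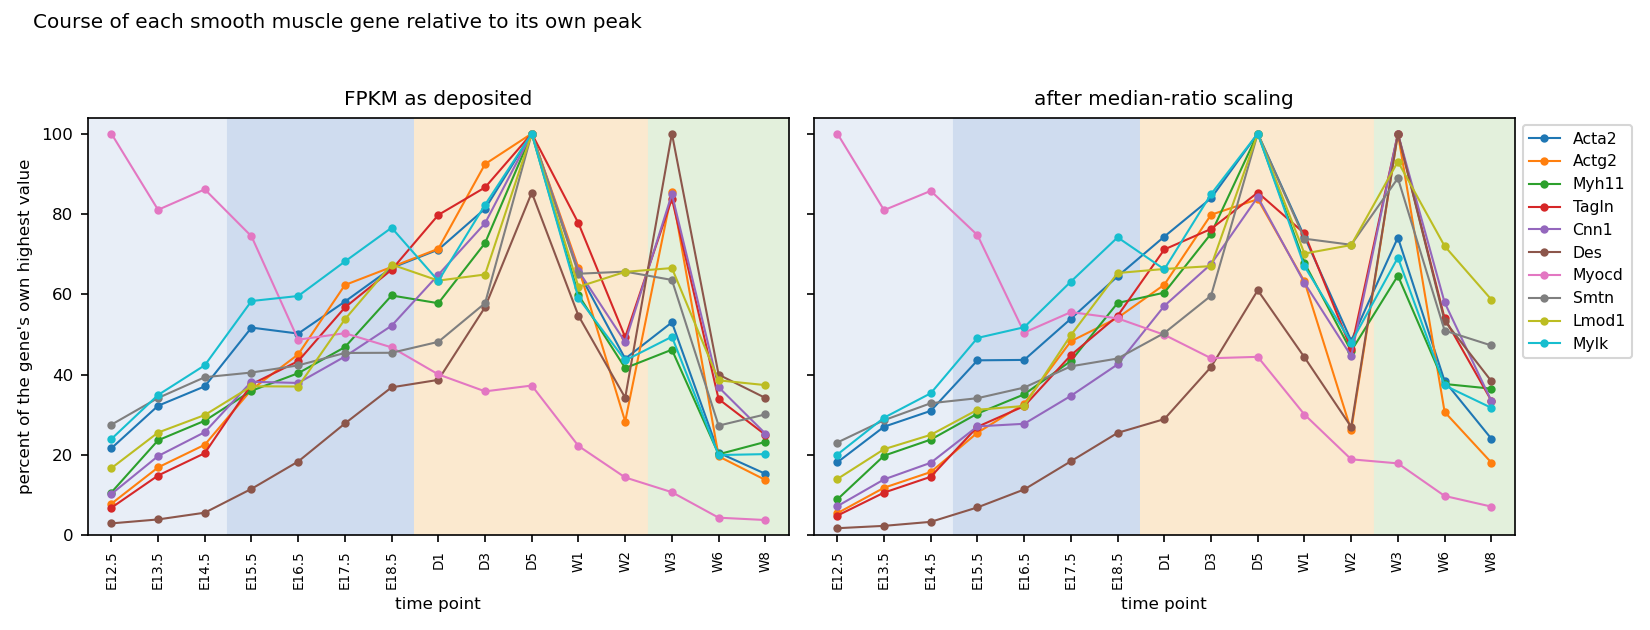
Each gene as a percent of its own highest value at the 15 ages, as deposited (left) and after median-ratio scaling (right), with background colours for the age groups. All genes but Myocd and Des peak at D5 on the left, and W3 stands above W2 in most genes on both sides, reaching 100% of the maximum for Des.

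The courses of the 9 genes other than Myocd were alike. Over the 15 ages Pearson's r of log2(FPKM + 1) in their 36 pairs lay between 0.42 (Des and Mylk) and 0.98 (Tagln and Cnn1), with a median of 0.87, and in the 9 pairs with Myocd between -0.67 and 0.36. In rescaled values these ranges were 0.71 to 0.99 and -0.75 to -0.10. The pairs share their libraries, so these are descriptions. The symbols outside the set whose course was most like the mean course of the 10 genes, among 9857 that reached 10 FPKM, were Bgn, Pdlim3, Hspb7, Clec11a, Tpm2, Gm13889, Asb2, Hspb6, Susd2 and Rras, with r from 0.969 to 0.976 over 15 ages. Bgn, a proteoglycan of the extracellular matrix, came first, and the smooth muscle tropomyosin Tpm2 went from 105 FPKM (E12.5) to 1135 FPKM (D5).

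Other genes of smooth muscle were examined as lists. Of 28 contractile and cytoskeletal partners, 26 passed the F test in limma as deposited and 20 after rescaling, where 75.5% and 66.1% of all symbols did. Of these partners 5 were higher in late than early fetal ages (5.38% of all symbols) and 2 were higher in suckling than late fetal ages (5.49%). In weaned ages 14 were lower (39.2% of all symbols), with 4 lower after rescaling (11.9%), and the weaned median of the partners was -1.02 as deposited and -0.44 rescaled, beside -0.42 and 0.00 for all symbols. Between fetal groups the furthest were Pcp4, a calmodulin-binding peptide (log2 difference 2.03), the intermediate filament protein synemin (Synm, 1.92) and the LIM protein Fhl1 (1.58). Fhl1 rose again after birth, from 123 FPKM at E18.5 to 309 FPKM at W3, with a suckling against late fetal log2 difference of 1.67 ± 0.30 (SE, adjusted p = 0.00133, limma). Tns1, which ties actin to focal adhesions, was the other partner called there (1.01). Nexn (-1.56), integrin Itga8 (-1.54) and the regulatory light chain Myl9 (-1.41) had the furthest weaned differences.

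Of 15 genes of contraction signalling, 11 passed the F test, where 75.5% of all symbols did. None (0) was called between fetal groups, where 5.38% of all symbols were called higher and 3.92% lower. In weaned ages 9 were lower (39.2% of all symbols), with 5 lower and 3 higher after rescaling (11.9% and 17.4% of all symbols), and the weaned median was -0.79 as deposited and -0.23 rescaled. Gucy1a3, a subunit of the nitric oxide receptor that relaxes smooth muscle, fell from 17.8 FPKM at D5 to 2.33 FPKM at W8 (log2 difference -1.95, weaned against suckling). Ppp1r14a, an inhibitor of myosin phosphatase, differed by -1.70, and Pde5a, which breaks down cyclic GMP, by -1.56, and by -0.66 from late fetal to suckling ages (17.2% of all symbols were called lower there). Of 17 receptors, channels and calcium-handling genes 16 were testable and 11 passed the F test, against the same 75.5%. Phospholamban (Pln, 1.49), the tachykinin receptor Tacr2 (1.14) and the potassium channel subunit Kcnmb1 (0.77) were called higher in suckling than late fetal ages (5.49% of all symbols), with 3 also called after rescaling (8.34%). Between fetal groups Slmap was the 1 called (1.01), where 5.38% of all symbols were called higher. In weaned ages 8 were lower (39.2% of all symbols), led by caveolin 1 (Cav1, -2.05), the calcium channel Cacna1c (-1.19) and the potassium channel Kcnma1 (-1.07), and after rescaling 3 were lower and 1 was higher, the muscarinic receptor Chrm3 (0.50), which answers acetylcholine. The weaned median of the receptor list was -0.57 as deposited and -0.14 rescaled.

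The 18 transcription factors of gut muscle and its mesenchyme are shown beside Myocd. In the F test 17 passed, where 75.5% of all symbols did, and between fetal groups 5 were lower and 2 higher, where 3.92% and 5.38% of all symbols were. Nkx2-5 (-2.77), Six2 (-1.54) and Nkx3-2 (-1.46), factors that pattern the stomach mesenchyme and its sphincter, were furthest down, and Klf4 (1.73) and Klf5 (1.09), which are also epithelial factors, were up. From late fetal to suckling ages no factor (0) was called on the deposited values (5.49% of all symbols were higher and 17.2% lower). After rescaling Gata6 (0.88) and Mef2d (0.34) were called higher (8.34% of all symbols). In weaned ages 13 of the 18 were lower (39.2% of all symbols), with 9 lower and 2 higher after rescaling (11.9% and 17.4% of all symbols). The weaned median of the factors was -0.98 as deposited and -0.61 rescaled. Tcf21 (-2.25), Hic1 (-2.06) and Foxf1 (-1.91) led these. The Srf co-activators of the myocardin family that respond to actin, Mkl1 and Mkl2, went from 15.4 to 11.8 FPKM and from 9.20 to 3.31 FPKM between E12.5 and W8, less far than Myocd. After rescaling Mkl1 rose between these ages, from 12.2 to 17.4 FPKM, and Mkl2 fell from 7.26 to 4.89 FPKM.

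The non-muscle relatives are the genes against which the ratios were formed. Of 14 listed, 13 were testable and 12 passed the F test, where 75.5% of all symbols did. Myh14 (1.43), Tagln2 (1.14) and Tmod3 (0.77) were called higher in late fetal ages (5.38% of all symbols). From late fetal to suckling ages Myh10 (-1.32) and Tmod3 (-0.66) were called lower (17.2% of all symbols), and after rescaling Tmod3 (-0.43) was the 1 called (7.01% were lower). In weaned ages Cnn2 (-2.45), Myh10 (-2.26) and Smtnl2 (-1.84) led 6 lower calls (39.2% of all symbols) and Tagln2 (0.85) was the 1 higher call (3.6%), and after rescaling 4 were lower and 4 higher (11.9% and 17.4%). These lists hold between 13 and 28 tested genes and carry no test of their own.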

How the data were processed

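RNA of whole stomachs was measured at 15 ages, 1 library each. The values the authors deposited are FPKM, 1 for each entry of a gene, bracketed by confidence bounds. The submitters' processing notes name Bowtie 0.12.2 and FastQC, the paper's methods name HISAT2 and StringTie, and the tables have the layout of Cufflinks with RefSeq identifiers (GRCm38). The methods also name liver as the RNA source, where the labels name stomach. Whether counting used strand is not given in the sources used here. Library depth is unknown from these values.

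Entries of a symbol were summed. Symbols with a maximum of at least 1 FPKM were fitted as log2(FPKM + 1), a scale that understates change of low genes, with limma 3.58.1 in R 4.3.3 (Benjamini-Hochberg, adjusted p under 0.01). The paper tests across phases drawn from the same transcriptomes, and age groups from the labels replaced them here, with the phases as an alternative. Ratios used exact permutation tests. The fit was tested on simulated data. Ratios and medians were computed with Python 3.11.15, NumPy 2.4.6 and pandas 2.3.3. The 10 genes, the lists and the tests were chosen with earlier results of these data known. All 10 genes are named, and from each list the called genes furthest from 0 (at most 3 in each direction per comparison). Older symbols were matched through synonyms that are no other gene's symbol. Alternatives were other pseudocounts, limits, scalings, groupings and thresholds, and leaving out each age. In limma a p-value sets the difference between group means against the spread within groups, which includes change with age. For the ratios it is the share of splits of the ages with a difference at least as large.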

Additional observations from a re-analysis of the deposited data

Results flagged for a closer look

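In groups of 4 to 10 ages, values were screened for an age far from its neighbours in value (Dixon's test at 95%). This covered 20 sets, those of the 10 genes in the late fetal and suckling groups, and 2 stood out. The nominal rate of about 1 in 20 is for independent values without a trend, so it is no reference for this count. Myocd at E15.5 was the highest late fetal value, at 13.48 FPKM against 8.47 to 9.11 FPKM at the other 3 ages. Lmod1 at D5 was the highest suckling value, at 37.6 FPKM against 23.3 to 24.7 FPKM at the other 4 ages. The values of a group come from different ages, so change with age and spread between libraries cannot be told apart.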

How the results depend on the processing

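The count of genes called in the F test was 2 with ages grouped as before against after birth, 6 with the 3 phases of the paper, and 7 to 10 with an age left out. Between fetal groups the 2 calls became 1 without a filter and 1 with quantile normalization, 7 at a threshold of 0.05, and 0 to 3 with an age left out. From late fetal to suckling ages the count of 0 became 1 with a pseudocount of 5, 2 with W3 counted as suckling and 2 at 0.05, and was 0 to 1 with an age left out. For weaned against suckling ages the 3 calls became 1 with median-ratio scaling, 8 with W3 counted as suckling and 5 at 0.05, and 1 to 8 with an age left out, and the median of the 10 genes was -0.45 with median-ratio scaling. Without D1 and W2, an alternative chosen after seeing liver and striated muscle transcripts there, the 4 counts were 9, 2, 0 and 4. At the main settings 75.5% of all symbols passed the F test and 39.2% were called lower in weaned ages. For most of the other settings the share of all symbols is not given, so these counts are not a result about the 10 genes.

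The direction reversed for Mylk from late fetal to suckling ages (-0.036 with W3 counted as suckling, and -0.11 to 0.19 with an age left out) and for Des at weaning (-0.63 with W3 counted as suckling, -0.32 without D1 and W2, and -0.47 to 0.30 with an age left out). At weaning the log2 ratio of Actg2 to Acta2 became -0.15 with W3 counted as suckling and ranged from -0.024 to 0.40 with an age left out, and that of Cnn1 to its relatives became -0.21 and ranged from -0.053 to 0.61. The birth difference of Smtn to Myh11 ranged from -0.24 to 0.049. The weaning calls of Des to Vim and Myocd to Srf did not pass with W3 counted as suckling or with any suckling or weaned age left out, since a smaller group raises the smallest p. For these changes the cause was otherwise not tested. The smallest number of ages in a group, 3, limits each test, and depth is not known. No paired analysis was possible because the labels give no replicate numbers shared between groups.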

Other observations

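Cell types that share the gut wall with smooth muscle had courses of their own, given here as summed FPKM of their marker genes. The 3 markers of interstitial cells of Cajal, the pacemaker cells of gut muscle (Kit, Ano1 and Etv1), summed to 60.3 FPKM at E12.5, 56.7 at D5 and 26.1 at W8. The 5 markers of enteric neurons and glia fell from 65.0 FPKM at E12.5 to 5.90 at W8. The 6 pericyte markers, of the mural cells of small vessels that also carry Acta2, were at 166 FPKM at E13.5, 113 at D5 and 29.6 at W6, and the 4 endothelial markers at 82.2, 68.9 and 14.3 FPKM at E15.5, D5 and W6. None of these lists had the rise from E12.5 to D5 of the smooth muscle genes, and the 7 fibroblast markers rose from 1194 FPKM at E12.5 to 3306 at D5. The 5 epithelial markers went from 388 FPKM at E12.5 to 3160.5 at W6. The 3 mesothelial markers summed to 87.6 FPKM at D1 and 8.71 at W8. The 6 heart muscle markers summed to 262 FPKM at W8, of which Tnni3 alone made 258 FPKM, with Tnnt2 at 0.641 and Myl7 at 3.04 FPKM. The 6 liver markers summed to 2396 FPKM at W6, of which Apoa1 made 2269.8 and Ttr 125 FPKM, with Alb at 0.869 FPKM and Cyp3a11 at 0. These sums are descriptions of single libraries and carry no test.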
